A study of Mus musculus with 28 samples.

Results

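The genes described here belong to 4 families of cell junction proteins that were followed through mouse molar development. They are the classical and related cadherins, the claudins, the desmosomal cadherins and the connexins. Members were chosen by gene symbol alone, from the protein-coding genes of a read count table. The choice gave 75 genes of the 52636 in the table, made up of 23 numbered cadherins, 23 claudins, 3 desmocollins, 6 desmogleins and 20 connexins. The symbol rule uses no measured value, although the families were picked for description with earlier results of these data known.

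Lower first molar tooth germs of C57BL/6JOlaHsd embryos were dissected and sequenced tooth by tooth. The bud stage (E13, labelled E13.5), the cap stage (E14, labelled E14.5) and the bell stage (E16, labelled E16.5) each had 7 teeth. A further group, labelled E15 and wild type, entered only a separate table, with 6 teeth analysed here. By their labels the E13 teeth came from 7 embryos, the E14 teeth from 6 and the E16 teeth from 5, so that some pairs of left and right teeth shared an embryo. All of these groups were untreated animals of that strain, and whole germs were used, so each library mixed epithelium, mesenchyme, vessels and nerves. In such bulk samples more cells of a type and more RNA per cell cannot be told apart.

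Cadherins hold neighbouring cells together through calcium-dependent contacts, and their inner ends bind catenins. E-cadherin (Cdh1) and P-cadherin (Cdh3) are typical of epithelia, N-cadherin (Cdh2) and Cdh11 of mesenchyme, and VE-cadherin (Cdh5) of endothelium. Desmocollins and desmogleins are the cadherins of desmosomes, which anchor keratin filaments, and they are found in epithelia. Claudins form the strands of tight junctions and set which ions pass between cells. Connexins build gap junctions, through which small molecules pass from cell to cell.

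From this textbook knowledge, 24 members were listed as epithelial (Cdh1, Cdh3, 8 claudins, all 9 desmosomal cadherins and 5 Gjb connexins). Another 4 were listed as mesenchymal (Cdh2, Cdh6, Cdh11 and Gjc1), 4 as endothelial (Cdh5, Cldn5, Gja4 and Gja5), 4 as members of Schwann cells and nerves and 1, Cdh15, as muscle. Gja1, which both epithelium and mesenchyme express, was kept apart, and the remaining 37 members were not assigned. The lists were made with earlier results of these data known.

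Between 17814073 and 27115729 reads were counted per tooth. Levels are given as normalised counts, that is counts divided by a size factor of the library. Of the 75 members, 53 had enough counts to be tested and 22 did not. The highest stage mean among those 22 was 12.7 normalised counts, and 6 of them, among which Cdh16, Cldn16 and Cldn18, had no count in any tooth.

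One E16 tooth, the left molar of embryo 3, stood apart and had the lowest total, 17814073. Its summed mesenchymal markers were 41544 normalised counts, against 98542 to 116080 in the other 6 E16 teeth, and its epithelial marker sum was 39259 against 55697 to 64511. All 4 mesenchymal and all 4 endothelial members were below the range of the other E16 teeth in it. Of the 21 epithelial members tested, 9 were below that range, 4 above it and 8 within it. The share of all genes outside that range in this tooth is not given here, so these counts describe the tooth and are not read as a trait of the members. Where leaving it out changed a call or turned a direction of a result below, the value without it is given.

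To show the sequence around members that behaved differently, the 250 bases before the start of Cldn1, Cldn4 and Gja1 are given, since Cldn1 and Gja1 rose at both steps and Cldn4 did not. The sequences are from RefSeq (GRCm38.p6), and 44 of the 75 members had an entry, with 58 windows among them. Read 5′ to 3′ on the gene's strand, they lie at chr16:26371840-26372089 (minus strand) for Cldn1, chr5:134946935-134947184 (minus strand) for Cldn4 and chr10:56377050-56377299 (plus strand) for Gja1. Capitals mark matches, on either strand, to CACCTG, an E-box of the kind bound by Snai and Zeb proteins, or to TGACTCA, the site of AP-1 factors.
Cldn1: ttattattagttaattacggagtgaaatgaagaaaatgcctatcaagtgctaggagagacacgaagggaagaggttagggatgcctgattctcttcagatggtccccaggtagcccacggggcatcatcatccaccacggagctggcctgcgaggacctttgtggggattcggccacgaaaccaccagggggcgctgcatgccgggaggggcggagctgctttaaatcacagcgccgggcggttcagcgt
Cldn4: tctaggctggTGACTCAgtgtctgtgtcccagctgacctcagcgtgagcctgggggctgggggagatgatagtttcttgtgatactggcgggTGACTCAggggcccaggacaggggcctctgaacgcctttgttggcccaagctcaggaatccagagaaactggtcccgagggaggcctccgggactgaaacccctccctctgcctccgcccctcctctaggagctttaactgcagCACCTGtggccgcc
Gja1: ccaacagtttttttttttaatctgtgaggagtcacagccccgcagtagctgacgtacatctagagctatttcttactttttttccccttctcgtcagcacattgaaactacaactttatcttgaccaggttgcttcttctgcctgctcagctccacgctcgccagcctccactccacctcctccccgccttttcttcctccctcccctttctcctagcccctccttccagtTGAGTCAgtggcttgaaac
The Cldn4 window held 2 matches to TGACTCA, which began 240 and 158 bases before the start, and 1 to CACCTG. The Gja1 window held 1 match to TGACTCA, beginning 19 bases before the start, and the Cldn1 window held neither motif. CACCTG was found in 17.2% of the 58 member windows and in 17.2% of all 32851 windows in the table. TGACTCA was found in 5.17% of the member windows and in 4.46% of all windows. Of the 11 windows of epithelial members, 4 (36.4%) held CACCTG, those of Cldn4, Cldn6, Cldn7 and Gjb2, and 1 (9.09%) held TGACTCA. The letters describe these windows and say nothing of which factors were bound.

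The first question was how the members changed from bud to cap, from cap to bell, and over both steps. Counts of all 21 teeth were fitted together with edgeR's quasi-likelihood test. A member was called where its p, adjusted by Benjamini-Hochberg over the 19101 genes tested, was below 0.05. From E13 to E14, 19 of the 53 tested members were higher and 5 lower, when 11.3% of all genes were called higher and 8.47% lower. The count of 5 was the least steady, being 2 without the left E13 molar of embryo 7, 7 without the left E16 molar of embryo 3, and 3 without any 1 of 5 other teeth. From E14 to E16, 19 members were higher and 9 lower, against 15% and 13.1% of all genes. From E13 to E16, 25 were higher and 10 lower, against 21.6% and 19.6% of all genes. Of the 53, 5 (Dsc1 among them) reached 10 normalised counts in fewer than 7 teeth outside the stage where they were highest, so they could be tested only through that stage. Without them 48 members were tested, with 19 higher and 5 lower in the first step, 17 and 9 in the second, and 22 and 10 over both.

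The epithelial members rose most often. From E13 to E16, 16 of the 21 tested epithelial members were higher, 1 (Cldn8) was lower and 4 were not called. Of all genes tested, 21.6% were higher and 19.6% lower. Without the left E16 molar of embryo 8, 2 epithelial members were lower. The 3 that could not be tested were Dsg1c, Dsg4 and Gjb5. Without those tested only through 1 stage, 14 of 19 were higher over both steps. The tested members' median log2 fold change was 1.63, while that of all genes tested was -0.01. In the first step the median log2 fold change of the epithelial members was 0.55. Of them 11 were higher and 1 (Cldn4) lower, against 11.3% and 8.47% of all genes. Without the right E14 molar of embryo 2, 2 were lower in that step, and without any 1 of 9 other E13 or E14 teeth 0 were. In the second step 13 were higher and none lower by edgeR, against 15% and 13.1% of all genes, and DESeq2 also called none lower. Without those tested only through 1 stage, 12 of 19 were higher and none lower in that step. No epithelial member was lower in that step at an unadjusted p below 0.05 either.

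The epithelial list did not move as 1 group, since its families differed. All 9 tested cadherins and desmosomal cadherins of the list, and all 4 tested connexins of the list, were higher at E16 than at E13. Without those tested only through 1 stage these were 8 of 8 and 3 of 3. Of the 8 epithelial claudins, 3 were higher (Cldn1, Cldn6 and Cldn10), 1 was lower (Cldn8) and 4 were not called (Cldn3, Cldn4, Cldn7 and Cldn23). Of all genes tested, 21.6% were higher and 19.6% lower in this comparison. Whether the counts of the 8 claudins differ from these shares was not tested. The median log2 fold changes were 2.21 for the cadherins and desmosomal cadherins, 1.71 for the connexins and -0.15 for the claudins.

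**Figure D1:**
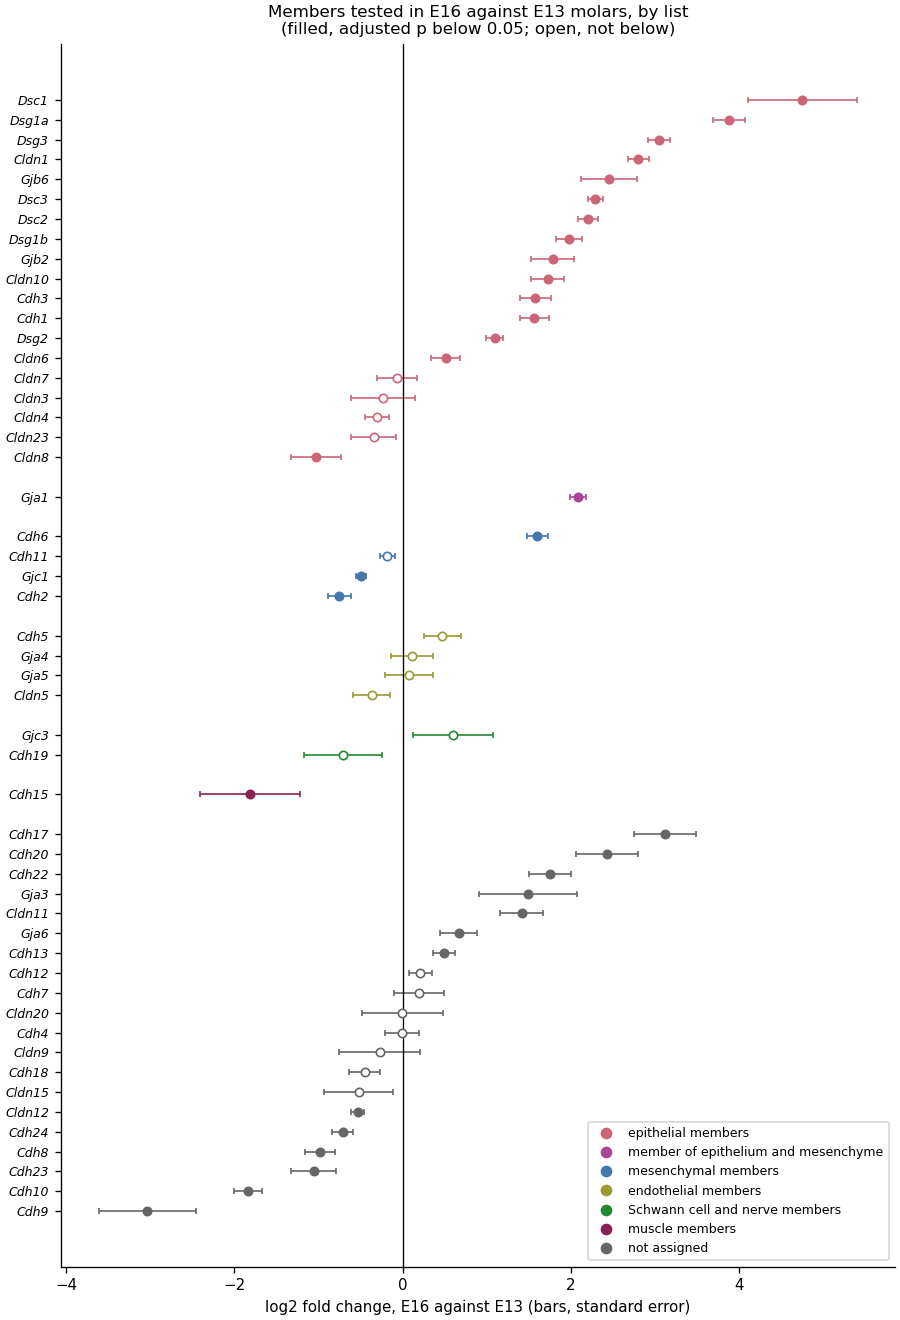
Log2 fold change of 51 of the 53 tested members from E13 to E16 (x axis; bars, standard error), ordered by size within each list; filled points had an adjusted p below 0.05. Dsc1, the highest point of the epithelial list, could be tested only through its E16 teeth, so its value is not read. The other epithelial members drawn spread from Dsg1a (3.88) to Cldn8 (-1.03), with most claudins of the list near or below 0.

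Among the classical cadherins of epithelium, Cdh1 had a lowest, median and highest count of 1151, 1540 and 1855 at E13. At E14 these were 1896, 2291 and 2890, and at E16 they were 1610, 5030 and 5269. The E14 teeth were all above the E13 teeth, and 6 of the 7 E16 teeth were above every E14 tooth. The exception was the left molar of embryo 3. The log2 fold change was 0.62 (SE 0.17, adjusted p = 0.012) in the first step and 0.95 (SE 0.17, adjusted p = 0.00014) in the second. Without that tooth the second step was 1.11 with an SE of 0.09.

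Cdh3, P-cadherin, had a median of 965 counts at E13 (range 899 to 1112), 2045 at E14 (1829 to 2329) and 3240 at E16 (868 to 3636). Its largest step came first, with a log2 fold change of 1.06 (SE 0.18, adjusted p = 0.00014). From E14 to E16 the change was 0.51 (SE 0.18, adjusted p = 0.034). The 868 counts belonged to the left molar of embryo 3, and without it that step was 0.69 (SE 0.07, adjusted p = 1.3e-08).

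The genes of the 9 desmosomal cadherins lie side by side on chromosome 18 within 644 kb (GRCm38), the desmocollins on the minus strand and the desmogleins on the plus strand. All 7 that could be tested were higher at E16 than at E14 and than at E13, when 15% and 21.6% of all genes were. The other 2, Dsg1c and Dsg4, did not have enough counts, and Dsc1 had enough only at E16. Without Dsc1 the count was 6 of 6.

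Dsc3, the desmocollin of basal and lower layers of stratified epithelia, went from a median of 1783 counts at E13 (range 1630 to 2133) to 4173 at E14 (3490 to 5076) and 9171 at E16 (7395 to 9787). The 3 stages did not overlap. The rise over both steps was 4.90-fold, a log2 fold change of 2.29 (SE 0.09, adjusted p = 1.3e-15). Dsc2, which is more widely expressed, rose by 0.51 (SE 0.12, adjusted p = 0.0026) and then by 1.70 (SE 0.12, adjusted p = 5.2e-11) on the log2 scale, so that its larger step was the second.

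Dsg3, the desmoglein of basal layers and of the oral mucosa, had a median of 259 counts at E13 (range 213 to 379), 643 at E14 (573 to 749) and 2317 at E16 (1818 to 2886). Its stages did not overlap either, and E16 was 8.28-fold above E13 (log2 fold change 3.05, SE 0.13, adjusted p = 7.1e-15). Dsg1a, a desmoglein of upper layers, was at 129 to 211 counts at E13, 255 to 524 at E14 and 1509 to 3670 at E16. That was 14.7-fold over both steps (log2 fold change 3.88, SE 0.19, adjusted p = 4.8e-14), the largest fold change among members with a mean of at least 50 counts. Its highest value, 3670, came from the left molar of embryo 3, and without that tooth the log2 fold change was 3.74.

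Dsg1b was not called in the first step, with a median of 221 counts at E13 and 240 at E14 and a log2 fold change of 0.15 (SE 0.15, adjusted p = 0.53). From E14 to E16 it rose by 1.83 (SE 0.15, adjusted p = 1.6e-09). Dsg1a, Dsg1b and Dsg1c are close copies of each other, and reads that fit several of them may have been split or left out by the counting, so their separate levels are uncertain.

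Dsg2, the desmoglein that simple epithelia also carry, rose least of the desmosomal cadherins tested. Its median was 1826 counts at E13 (range 1713 to 2300), 2695 at E14 (2382 to 2864) and 4230 at E16 (2495 to 4759). The log2 fold change from E13 to E16 was 1.10 (SE 0.10, adjusted p = 3.9e-09). Dsc1, a desmocollin of upper layers, was at 0 to 6.36 counts in the 14 earlier teeth and at 17.1 to 100 at E16, with no overlap. Its test is not quoted, since it had enough counts to be tested only through its E16 teeth. It is named here although its counts are below the 50 set for named genes.

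The mix of desmogleins is given as shares, without a test. Per kilobase of exon, Dsg2 made up 65.7% ± 3.96 (SD, n = 7) of all desmoglein counts at E13, 59.9% ± 1.99 at E14 and 34.7% ± 7.89 at E16. Dsg1a went from 7.94% ± 1.08 to 11.7% ± 2.02 and 27.9% ± 5.92, and Dsg3 from 11.5% ± 1.21 to 17.2% ± 0.97 and 23.2% ± 1.71. For Dsg2 every E16 tooth was below every earlier tooth, 41.7% being the highest at E16. Among desmocollins, Dsc3 held the largest share at each stage, 67.6% ± 2.85 at E13, 77.1% ± 4.03 at E14 and 68.8% ± 3.27 at E16.

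**Figure D2:**
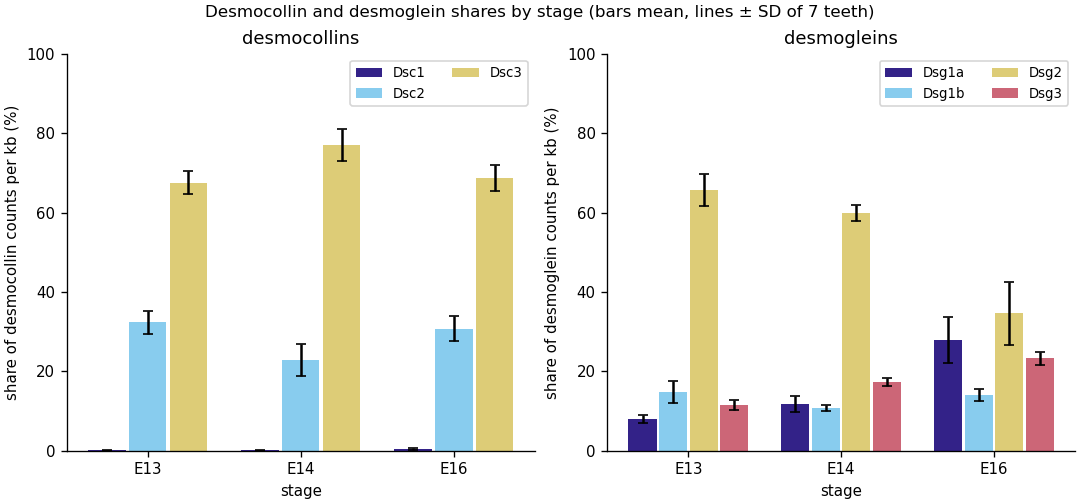
Share of each desmocollin (left) and desmoglein (right) in the counts per kilobase of its family (y axis, percent), by stage; bars are means and lines SD of 7 teeth, and Dsg1c and Dsg4, under 1% on average, are not drawn. The Dsg2 share went from 65.7% to 34.7% while the Dsg1a share went from 7.94% to 27.9%.

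Among claudins, Cldn1, a barrier claudin of stratified epithelia, was the gene that rose most. Its 7 teeth were at 174 to 270 counts at E13, with a median of 249, at 413 to 621 at E14 (median 454) and at 1333 to 2027 at E16 (median 1731). The stages did not overlap, and E16 was 6.99-fold above E13 (log2 fold change 2.80, SE 0.12, adjusted p = 7.1e-15). Cldn10, an ion channel-forming claudin, rose by 1.72 on the log2 scale over both steps (SE 0.19, adjusted p = 9.6e-08), with medians of 56.7, 93.6 and 191 counts.

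Cldn4, a claudin of simple and embryonic epithelia, had a median of 342 counts at E13 (range 295 to 384), 249 at E14 (193 to 327) and 294 at E16 (158 to 361). These ranges overlapped. Its first step was a fall by 0.41 on the log2 scale (SE 0.14, adjusted p = 0.041), which lost its call in several other fits. Cldn3 and Cldn7, of the same kind, had medians of 35.7 and 70.7 counts at E13 and 24.7 and 77.8 at E16, with adjusted p-values from E13 to E16 of 0.66 and 0.84. Cldn6, a claudin of embryonic epithelia, rose by 0.51 over both steps (SE 0.18, adjusted p = 0.022), a call that was lost in several other fits. Cldn8 fell by 1.03 (SE 0.30, adjusted p = 0.0075).

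Connexins included the member with the highest count at E16. Gja1, the most widely expressed connexin, was at 3096 to 3678 counts at E13 (median 3447), 4268 to 5091 at E14 (median 4844) and 9672 to 17224 at E16 (median 15658). The stages did not overlap, even with the left molar of embryo 3 at 9672. The log2 fold change was 0.47 (SE 0.09, adjusted p = 0.00061) from bud to cap and 1.62 (SE 0.09, adjusted p = 3.5e-12) from cap to bell.

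The epithelial connexins Gjb2 and Gjb6, which often join in the same channels, were called higher from cap to bell. Gjb2 was at a median of 82.4, 115 and 327 counts at the 3 stages and rose by 1.18 in the second step (SE 0.25, adjusted p = 0.00077). Its first step was 0.61 (adjusted p = 0.099, and 0.042 without the left E16 molar of embryo 3). Gjb6 was at medians of 20.8, 18.2 and 114 counts and rose by 1.75 (SE 0.32, adjusted p = 0.00015).

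**Figure D3:**
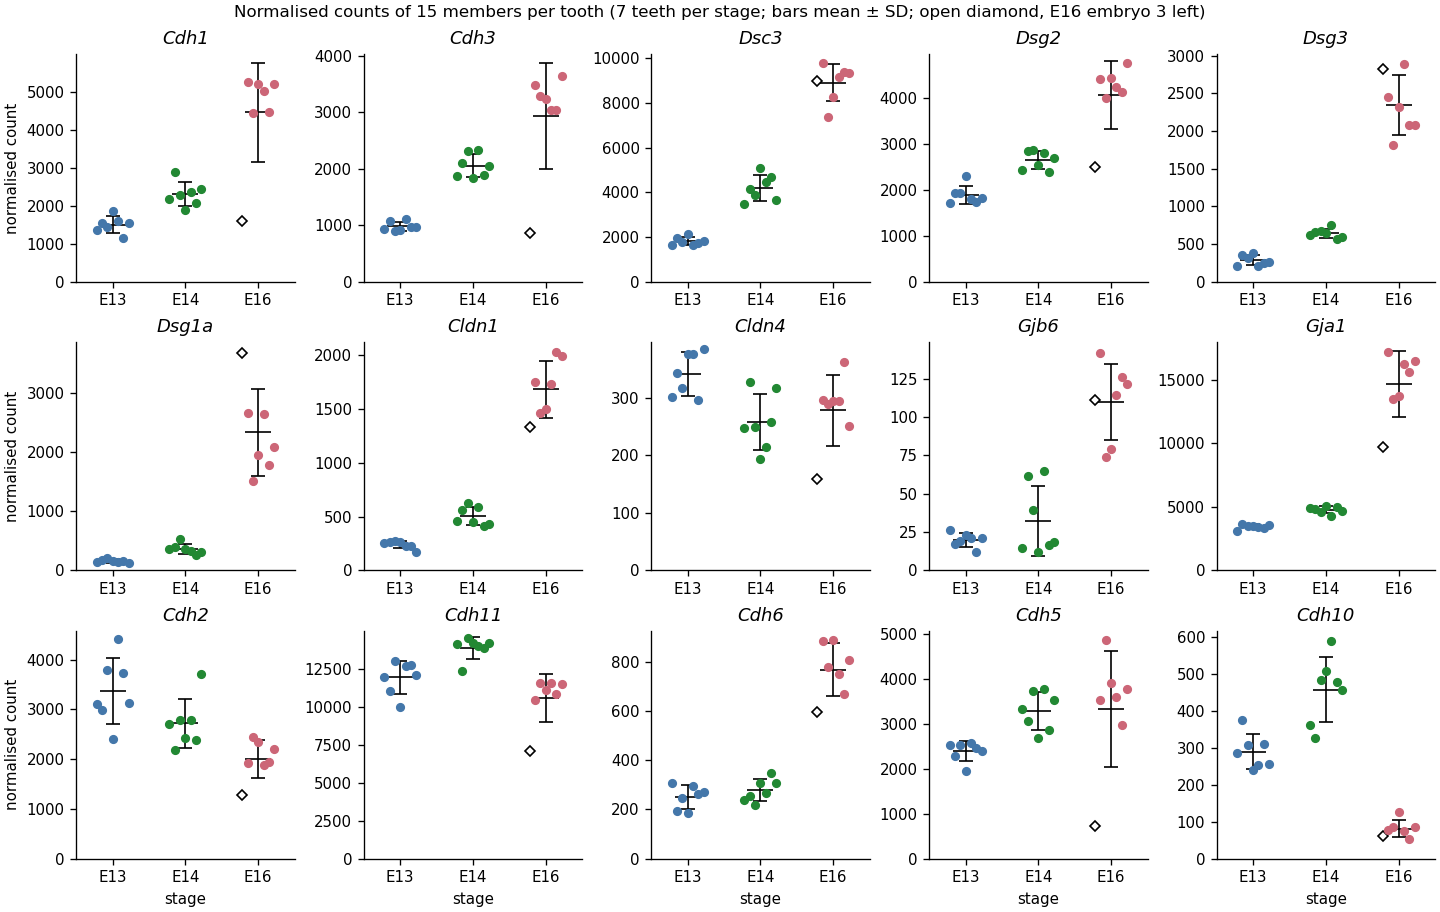
Normalised counts of 15 members (y axis, starting at 0) in each tooth by stage (x axis); points are teeth, bars mean ± SD of 7 teeth, and the open diamond is the left molar of E16 embryo 3. Dsc3, Dsg3, Cldn1 and Gja1 show 3 separate levels, Cldn4 overlaps between stages, and the open diamond lies far below the other E16 teeth for Cdh1, Cdh3 and Cdh5.

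The mesenchymal members went several ways. By edgeR none of the 4 was called from E13 to E14, when 11.3% of all genes were called higher and 8.47% lower. At an unadjusted p below 0.05, 1 was higher and 2 lower, and DESeq2 called 1 lower. Without the left molar of E16 embryo 3, 1 was called higher (Cdh11) and 2 lower (Cdh2 and Gjc1) in that step, and without the E14 right molar of embryo 5 or left molar of embryo 8, 1 was lower. From E14 to E16, 3 were lower and 1 higher, when 13.1% of all genes were lower and 15% higher. Over both steps 2 were lower, 1 higher and 1 not called, when 19.6% of all genes were lower and 21.6% higher. The median log2 fold change of the 4 over both steps was -0.34.

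Cdh2, N-cadherin, was at 2415 to 4424 counts at E13 (median 3130), 2194 to 3712 at E14 (median 2711) and 1285 to 2446 at E16 (median 1951). Neighbouring stages overlapped. The change was -0.31 on the log2 scale in the first step (SE 0.14, adjusted p = 0.11, and 0.038 without the left E16 molar of embryo 3) and -0.44 in the second (SE 0.14, adjusted p = 0.016). The second call was lost without the left E14 molar of embryo 8, which held the highest E14 count and where the log2 fold change became -0.34. Over both steps Cdh2 fell by 0.75 (SE 0.14, adjusted p = 8.1e-05).

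Gjc1, a gap junction gene of vessel walls and mesenchyme, fell by 0.50 over both steps (SE 0.06, adjusted p = 7.1e-07), with medians of 1999, 1782 and 1497 counts and all E16 teeth below all E14 teeth. Cdh11, a cadherin of loose mesenchyme and bone-forming cells, had the highest counts of the list, with medians of 12107, 14146 and 11074. It fell by 0.40 from E14 to E16 (SE 0.09, adjusted p = 0.0016), and E16 differed from E13 by -0.18 (SE 0.09, adjusted p = 0.12).

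Cdh6, an embryonic cadherin also known from kidney and neural crest, moved against the rest of the mesenchymal list. It was at 184 to 306 counts at E13, 219 to 349 at E14 and 595 to 891 at E16. E16 was 3.04-fold above E13 (log2 fold change 1.60, SE 0.13, adjusted p = 2.4e-10). It was named after its values were seen.

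Per tooth, the summed epithelial members stood at a log2 ratio of -0.95 ± 0.25 (SD, n = 7) to the summed mesenchymal members at E13. The ratio was -0.27 ± 0.15 at E14 and 1.18 ± 0.21 at E16. The highest E13 tooth, at -0.46, lay just below the lowest E14 tooth, at -0.43, and the highest E14 tooth, at 0.03, lay below the lowest E16 tooth, at 0.83. The size of the ratio depends on which genes are summed and on their lengths, so its change between stages is what is described. For Cdh1 over Cdh2 alone the log2 ratio was -1.16 ± 0.43, -0.23 ± 0.30 and 1.09 ± 0.39.

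Markers that are not members moved the same way. All 8 epithelial markers (such as Epcam, Krt5 and Krt14) were higher at E16 than at E13, and their sum per tooth was 15644 to 23015, 28250 to 35340 and 39259 to 64511 at the 3 stages. Of 6 mesenchymal markers, 3 were lower and 1 higher at E16 than at E13, when 19.6% of all genes were lower and 21.6% higher. The part that the amount of epithelium in a tooth had in each member's rise was not tested in these whole germs.

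**Figure D4:**
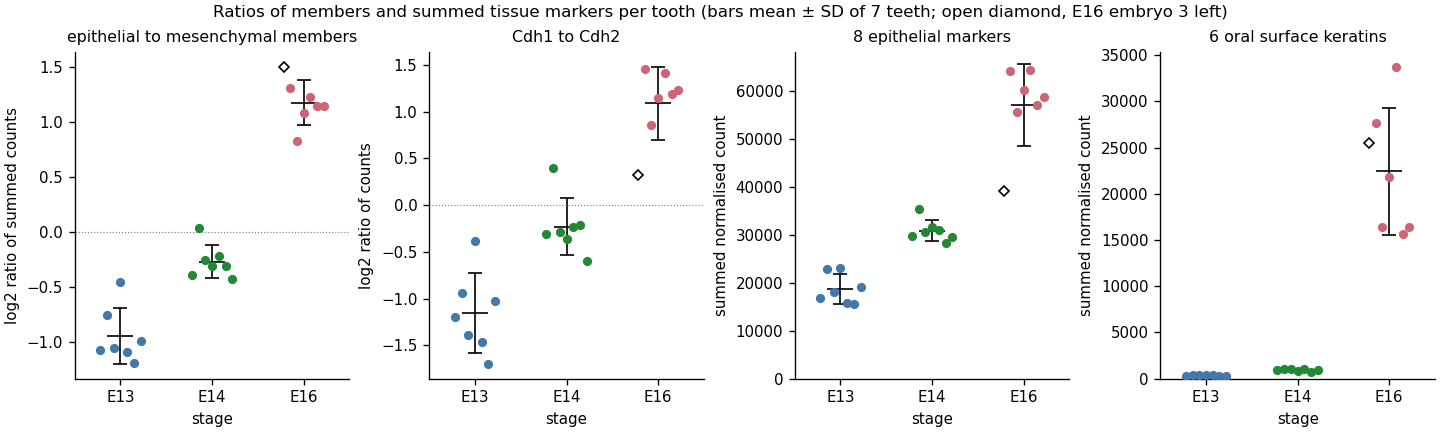
Log2 ratio of summed epithelial to summed mesenchymal members, log2 ratio of Cdh1 to Cdh2, and summed normalised counts of 8 epithelial markers and 6 oral surface keratins (y axes) per tooth by stage; bars are mean ± SD of 7 teeth and the open diamond is the left molar of E16 embryo 3. The member ratio went from -0.95 to 1.18 while the oral keratins rose from under 392 to at least 15599 counts.

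Each epithelial member was therefore also set against the epithelial marker sum of the same tooth. The mean log2 ratio was compared between stages with a two-sided exact permutation test over 7 against 7 teeth (3432 splits), with p-values adjusted over 57 tests. Teeth that shared an embryo entered this test as separate units, so its p-values treat them as independent although they were not. The smallest p this test allows is 0.00058. For 19 members with counts in every tooth, the marker sum rose by 1.61 on the log2 scale from E13 to E16, and 6 members rose more than it, 8 rose less or fell, and 5 were not called.

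The members that gained on the marker sum were Dsg1a, by 2.24 on the log2 scale, Dsg3 by 1.46, Cldn1 by 1.20, Gjb6 by 0.87, Dsc3 by 0.69 and Dsc2 by 0.59. For Dsg1a, Dsg3, Cldn1 and Dsc3 all E16 teeth were above all E13 teeth (adjusted exact permutation p = 0.0015 each). Cdh1 and Cdh3 did not differ detectably from the marker sum over both steps, at -0.11 (adjusted exact permutation p = 0.70) and -0.14 (adjusted exact permutation p = 0.70). Without the left E16 molar of embryo 3 both signs turned, to 0.03 (adjusted exact permutation p = 0.72) and 0.05 (adjusted exact permutation p = 0.72). Within the steps, however, Cdh3 changed by 0.33 from E13 to E14 (adjusted exact permutation p = 0.028). From E14 to E16 it changed by -0.47 (adjusted exact permutation p = 0.0066). Both calls held without that tooth, but the second was lost with the other forms of the marker sum given below. Cdh1 was called in neither step.

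Among the 8 members that lost were 6 claudins and Dsg2. Cldn4 was lower by -1.94 relative to the sum, with all E16 teeth below all E13 teeth, although its counts hardly moved. Cldn6, Cldn7 and Cldn23 were lower by -1.16, -1.72 and -1.97, also without overlap. Dsg2 was lower by -0.52. The same 8 members were called lower when the marker sum was taken without Krt5 or as a geometric mean. With the geometric mean 7 members were called higher, Dsg1b being added, and without Krt5 8 were, Dsg1b and Gjb2 being added. The markers themselves then rose by 1.41 and 1.28 on the log2 scale, so the sizes of gains and losses depend on the form used.

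**Figure D5:**
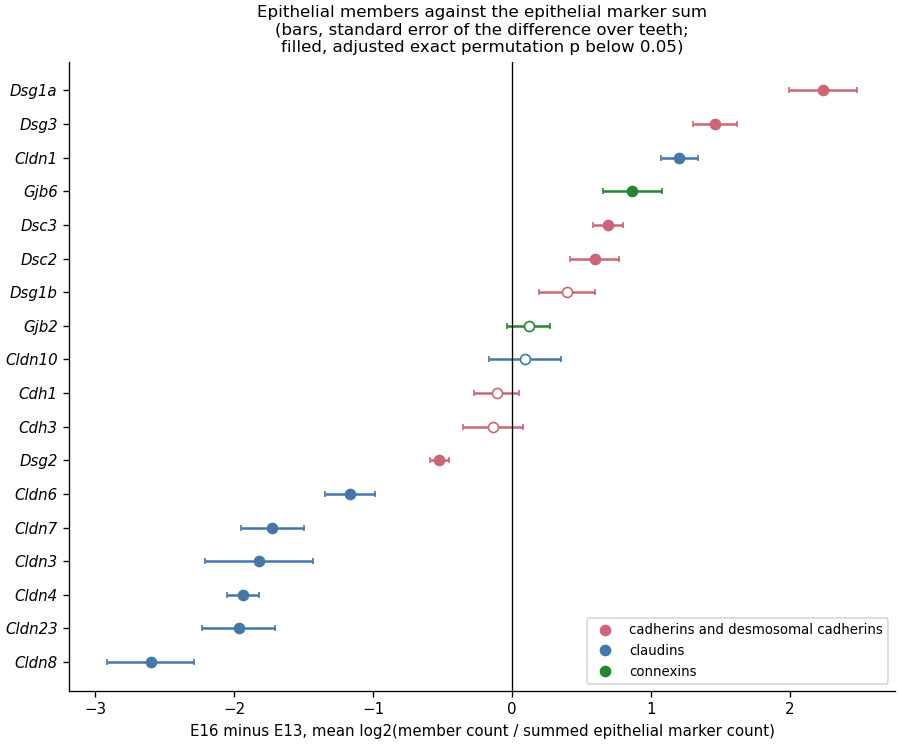
Difference between E16 and E13 in the mean log2 ratio of each epithelial member to the summed epithelial markers of the tooth (x axis; bars, standard error over teeth) for 18 of the 19 members; filled points had an adjusted exact permutation p below 0.05. Dsg1a (2.24) and Dsg3 (1.46) lie at the upper end, Cdh1 and Cdh3 near 0, and 6 claudins from -1.16 to -2.60.

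Keratins of the oral surface rose alongside these members. The sum of Krt4, Krt13, Krt6a, Krt1, Krt10 and Krt76, keratins of stratified oral epithelium, was 256 to 392 counts at E13, 702 to 1084 at E14 and 15599 to 33659 at E16. All 5 that could be tested were higher at E16 than at E14, when 15% of all genes were. Krt13 alone went from a mean of 16.1 counts at E13 to 11625 at E16, whereas Krt76 was at 0 to 6.21 at E16 and at 0 in all earlier teeth. Their part in the rise of Dsg1a, Dsg3, Dsc1, Cldn1 and Gjb6 was not tested. The left molar of embryo 3, which had the highest Dsg1a and Dsc1 counts, stood at 25525 for this sum, inside the range of the others. Its epithelial marker sum, at 39259, was below the range of the other E16 teeth (55697 to 64511).

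The endothelial members were called in no comparison by edgeR or DESeq2, and at an unadjusted p below 0.05 only Cdh5 was higher, in the comparisons with E13. Cdh5 had a median of 2465 counts at E13 (range 1940 to 2578), 3320 at E14 (2682 to 3771) and 3585 at E16 (715 to 4852). The E14 teeth were all above the E13 teeth, by 0.45 on the log2 scale (adjusted p = 0.15, and 0.00051 without the left E16 molar of embryo 3). The 715 came from the left molar of E16 embryo 3, and without it E16 was above E13 by 0.66 on the log2 scale (SE 0.09, adjusted p = 2.5e-06), against 0.47 (SE 0.22, adjusted p = 0.089) with it. Without the left E16 molar of embryo 6, 1 endothelial member was called lower over both steps. Cldn5 and Gja4, also of vessels, had log2 fold changes of -0.37 (adjusted p = 0.18) and 0.11 (adjusted p = 0.75) over both steps.

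Cdh15, the cadherin of skeletal muscle, was lower at E14 than at E13 (log2 fold change -2.08, SE 0.60, adjusted p = 0.016). The left E13 molar of embryo 7 held 258 counts of it and 22055 of the muscle gene Ttn, while the other 6 E13 teeth were at 0 to 105 and at 675 to 3641. Without that tooth the call was lost (-1.27, adjusted p = 0.11).

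Of the 4 Schwann cell and nerve members, Cdh19 and Gjc3 could be tested and neither was called in any comparison by edgeR or DESeq2, or at an unadjusted p below 0.05. Cdh19, a cadherin of Schwann cell precursors, had medians of 28.2, 25.4 and 22.8 counts at the 3 stages, and its ranges overlapped. Gjc3, a connexin of glia, had medians of 9.42, 6.52 and 14.9 counts. Cldn19 reached at most 8.05 counts in a tooth.

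Of the 20 tested members that were not assigned to a tissue, 7 were higher and 6 lower at E16 than at E13, against 21.6% and 19.6% of all genes. Without those tested only through 1 stage, 6 of 18 were higher and 6 lower. Several are type II or atypical cadherins best known from the nervous system. Cdh10 was at 241 to 376 counts at E13, 327 to 590 at E14 and 54.2 to 126 at E16. It rose by 0.66 (SE 0.15, adjusted p = 0.0028) and then fell by 2.50 (SE 0.16, adjusted p = 2.5e-11) on the log2 scale, and all E16 teeth were below all earlier ones. Cdh4 and Cdh13 also rose and then fell, by 0.65 and 0.66 for Cdh4 and by 0.94 and 0.44 for Cdh13.

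Cdh17, a cadherin known from liver and intestine, was at 0.98 to 17.0 counts at E13, 35.8 to 111 at E14 and 33.7 to 125 at E16. It rose by 2.89 in the first step (SE 0.37, adjusted p = 3.3e-06) and changed by 0.23 in the second (adjusted p = 0.62). Cldn11, a claudin of myelin and testis, had the same course, with medians of 77.1, 266 and 226 counts and a first step of 1.55 (SE 0.26, adjusted p = 9.5e-05). Cdh22 moved in the second step instead, from a median of 37.2 to 195 counts (2.29, SE 0.25, adjusted p = 1.7e-07). Among members with a mean of at least 50 counts, falls were also called for Cdh8, Cdh18 and Cdh24. Cdh24 fell by 0.44 in the first step (SE 0.12, adjusted p = 0.014) and Cdh18 by 0.55 (SE 0.18, adjusted p = 0.035), and Cdh8 fell by 0.70 in the second (SE 0.18, adjusted p = 0.0043). Some members with fewer counts fell further. Cdh9, named after its values were seen, had means of 15.5, 19.5 and 1.84 counts at the 3 stages and fell by 3.36 in the second step (SE 0.57, adjusted p = 5.1e-05). Cdh7, also named afterwards, fell by 1.11 in the first (SE 0.31, adjusted p = 0.013) and rose by 1.31 in the second (SE 0.31, adjusted p = 0.0022). For Cdh7, E16 differed from E13 by 0.20 (adjusted p = 0.63).

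Compared per kilobase of exon, the order of the members changed between stages. At E13 the 5 highest were Cdh11 (1341 counts per kilobase), Cdh5 (568), Cdh2 (418), Gjc1 (405) and Dsc3 (335). The SDs over teeth of Dsc3, Gja1 (334) and Cdh1 (328) overlapped. At E16 the order was Dsc3 (1649 ± 151), Gja1 (1428 ± 253), Cdh11 (1189 ± 180), Cdh1 (975 ± 285) and Cdh5 (792 ± 306), and neighbours in this order were apart by less than the larger of their SDs. Cdh2 had moved from the third to the fourteenth place.

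A further list held 26 junction partners, made up of inner-side proteins such as catenins and plakophilins and of other junction membrane proteins such as nectins and occludin. All were tested, and 21 were higher and none lower at E16 than at E13 by edgeR, and none was lower by DESeq2 or at an unadjusted p below 0.05. Of all genes tested, 21.6% were called higher and 19.6% lower by edgeR. Pkp1, a plakophilin of desmosomes, rose by 2.77 on the log2 scale (SE 0.13, adjusted p = 1.4e-14), from a median of 1186 to 8881 counts. Perp, a desmosomal membrane protein, rose by 2.17 (SE 0.11, adjusted p = 1.1e-13), and Ppl, a plakin that links desmosomes to keratin, by 1.89 (SE 0.11, adjusted p = 6.8e-13). The catenin genes Ctnna1 and Ctnnd1 were called higher and Ctnnb1, whose product also carries Wnt signals, was not (0.06, adjusted p = 0.65).

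Of 10 regulators of the epithelial state, 4 were higher at E16 than at E13 (Grhl1, Grhl2, Ovol1 and Snai1), 1 was lower (Twist1) and 5 were not called (Grhl3, Ovol2, Snai2, Zeb1 and Zeb2). Of all genes tested, 21.6% were higher and 19.6% lower. DESeq2 called 3 of the regulators higher and 1 lower. Ovol1 rose by 1.98 (SE 0.22, adjusted p = 8.8e-08), Grhl1 by 1.62 (SE 0.12, adjusted p = 1.1e-10) and Grhl2 by 0.94 (SE 0.08, adjusted p = 1.8e-09). Ovol1, Grhl1 and Grhl2 are transcription factors that promote epithelial genes, while Twist1 and Snai1 are factors of mesenchyme. Of those last, Twist1 was lower and Snai1 higher.

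A second table of estimated counts held 6 lower first molars of E15 beside 7 teeth each of E13 and E16, of which 1 E13 tooth is named differently than in the first table, and listed 54 of the 75 members. Here levels are compared within that table only. The E15 mean lay between those of E13 and E16 for 31 members, above both for 14 and below both for 9. Dsc3 was at 1739 ± 171 (n = 7), 6234 ± 1003 (n = 6) and 8630 ± 971 (n = 7) counts at E13, E15 and E16. Gja1 was at 3414 ± 189, 8314 ± 813 and 14377 ± 2095, and Cdh1 at 1448 ± 197, 3243 ± 367 and 4271 ± 1172.

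Not every riser had its E15 level midway. Dsg2 was at 3967 ± 670 counts at E15 and 3877 ± 575 at E16, a difference within the spread of either stage, against 1808 ± 185 at E13. Dsg3 was at 383 ± 65.9, 1805 ± 192 and 3283 ± 671, with the stages apart. Cldn4 was lowest at E15, at 243 ± 88.5 counts, but its E15 teeth (114 to 353) spanned the E16 range of 178 to 350. Cdh10 went the other way, from 296 ± 51.3 to 228 ± 84.7 and 101 ± 21.5.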

How the data were processed

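RNA of single whole molar germs was sequenced. The gene counts deposited by the authors are whole reads per Ensembl gene: reads were quality filtered, aligned with STAR to GRCm38 and counted with HTSeq, and the strand setting is not given in the sources used here, so reads of members and of genes that overlap them, such as antisense genes at Dsg2, Cdh2 and Cdh5, cannot be told apart. The estimated counts deposited by the authors in a second table were made with Salmon for E13, E15 and E16. The 21 libraries of the first table held 17814073 to 27115729 counts. Within each stage every pair of libraries differed by more than sampling noise. Replicates are single teeth, and teeth of 1 embryo are not independent animals. One E13 column whose name gives its stage but no embryo number was used as a replicate of E13, and 1 of the 7 E15 samples was not analysed here.

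Counts were tested with edgeR 4.0.16 (TMM, filterByExpr, quasi-likelihood F-test, stage as factor, all 21 libraries in 1 fit, adjusted p by Benjamini-Hochberg over 19101 genes, threshold 0.05), checked on simulated data. Levels are counts divided by DESeq2 1.42.0 size factors, and lengths are exon unions of GENCODE M21. Single ratios were tested with exact permutation tests. The members and lists were chosen with earlier results of these data known. Named members were the main members of each list, the 5 largest rises and falls per comparison among called members with a mean of at least 50 counts, the 5 highest per kilobase at each stage, and 3 each of the junction partners and regulators. Cdh6, Cdh7, Cdh9, Cdh15 and Dsc1 were added after their values were seen. DESeq2, other size factors, no filter on low counts, embryo sums, side, embryo number, each tooth left out and the second table were tried as alternatives. Results for some members are not reported here.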

Additional observations from a re-analysis of the deposited data

Results flagged for a closer look

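Values of 35 quantities (34 members and the ratio of epithelial to mesenchymal members) were screened by Dixon's test in each stage of 7 teeth, and 13 of the 105 groups held a tooth far from its neighbours, where chance alone would give about 5.25.

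The left molar of E16 embryo 3 accounted for 7 of the 13. In it Cdh1 was at 1610 normalised counts, against 4447 to 5269 in the other 6 E16 teeth, and Cdh3 at 868 against 3034 to 3636. Cdh11 was at 7070 against 10472 to 11556, Dsg2 at 2495 against 4004 to 4759, and Cldn6 at 190 against 503 to 641. Gja4 was at 25.0 against 101 to 137, and Gjc1 at 1167 against 1420 to 1561. Other members of the same tooth were not low, such as Dsc3, Dsg3 and Dsg1a, and its bone and cartilage marker sums were 3917 and 171 against 8696 to 10320 and 441 to 600 in the others.

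The remaining 6 were spread over 5 teeth. In E13 embryo X left, Cldn1 was at 174 against 230 to 270 in the other E13 teeth and Gjc1 at 2232 against 1927 to 2055. Dsg2 was at 2300 in E13 embryo 5 right against 1713 to 1939. At E14, Cdh2 was at 3712 in embryo 8 left against 2194 to 2797, Cdh11 at 12327 in embryo 2 right against 13864 to 14546, and Cdh8 at 110 in embryo 6 left against 56.9 to 76.3.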

How the results depend on the processing

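The rises of Cdh1, Cdh3, Dsc2, Dsc3, Dsg2, Dsg3, Dsg1a, Dsg1b, Cldn1, Gja1, Gjb2 and Gjb6 from E13 to E16 kept their direction and their call in every alternative run (for Dsg1a and Dsg1b all but the second table, which does not list them). Over 120 log2 fold changes of named genes no direction turned, and 726 of 758 values from other tests, scalings or tables and 2460 of 2520 with 1 tooth left out stayed on the same side of the threshold. Calls near the threshold were lost most often, for Cldn4, Cldn6 and Cdh18 in the first step and Cdh3 in the second. The rise of Cldn6 from E13 to E16 lost its call with the teeth of 1 embryo summed, with the embryo number as a replicate block and in the second table. With the embryo number as a replicate block, 12 members were higher and 1 lower from E13 to E14, and 0 epithelial members were lower in that step or from E13 to E16. Deviations of same-numbered teeth from their stage means correlated between -0.09 and 0.20, so the numbers were not taken to pair the teeth. With all genes that had any count, or with the teeth of 1 embryo summed, 3 members and 0 epithelial members were lower from E13 to E14. DESeq2 called 1 mesenchymal member lower in that step. With 1 tooth left out, 2 to 7 members were lower from E13 to E14 (2 without E13 embryo 7 left, 7 without E16 embryo 3 left, and 3 without E13 embryo 2 left or 5 right or E14 embryo 3 right, 6 right or 6 left), as were 0 to 2 epithelial and 0 to 2 mesenchymal members, while 0 to 1 mesenchymal and 0 to 1 endothelial members were higher. From E13 to E16, 1 to 2 epithelial members and 0 to 1 endothelial members were lower (2 without E16 embryo 8 left, and 1 without E16 embryo 6 left), and 0 to 1 endothelial members were higher. The log2 ratio of epithelial to mesenchymal members rose at both steps in each form, from -0.075 to 0.54 and 1.89 per kilobase, from -4.84 to -4.21 and -3.03 as a median over members, and from 0.37 to 1.24 and 2.53 without Dsc3 and Cdh11. Relative to other forms of the epithelial markers, chosen after seeing the data, 4 in place of 7 epithelial members were lower from E14 to E16, with the geometric mean and without Krt5 alike. Without the length, 3 of the 5 highest members at E14 remained. At this depth, members with a few counts per tooth, such as Cldn3, can show only large changes.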

Other observations

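The tables differed for a few members. Of the 54 members in both, 51 had means over the E13 and E16 teeth within 2-fold of each other. Gjc3, a glial connexin, was at 10.9 normalised counts in the first table and 352 in the second, and Gje1 at 0.070 and 117. Cdh16, with no count in the first table, was at 13.54 in the second. These members were chosen after their values were seen, and which table is nearer to their true level was not tested.

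Among members too low to be tested, Cldn17 was at 1.81 to 27.5 normalised counts in the E16 teeth and at 0 in all E14 teeth. It too was chosen after its values were seen.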
